A study of Mus musculus with 38 samples.

Results

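The interleukin receptor loci are the open chromatin peaks nearest to 9 mouse genes for cytokine receptor chains, Il2ra, Il2rb, Il15ra, Il7r, Il21r, Il6ra, Il6st, Il10ra and Il18r1. A peak was assigned to a receptor when that gene's body was the closest protein-coding gene body of mm10 and lay within 100000 bp. By this rule 82 of 73610 peaks of the endogenous table and 121 of 169323 peaks of the OT-1 and naive table belonged to them. This assignment used position alone and no measured value, but the 9 genes were chosen with earlier results of these data known. Of the 82 peaks, 16 lay within 1000 bp of a gene end, 37 inside a gene and 29 between genes. Il6st had 16 of them, Il2ra 14, Il10ra 12, Il6ra 9, Il18r1 9, Il21r 8, Il2rb 7, Il7r 5 and Il15ra 2. All 82 passed the filter on low values, a mean of 10 or more normalized reads over the libraries, and 102 of the 121 did. Of the 82 peaks, 80 (97.6%) overlapped 80 (66.1%) of the 121 by at least 1 bp, so both tables largely describe the same regions.

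The assay was ATAC-seq, in which the Tn5 transposase cuts accessible DNA and the reads in a peak measure how open it is. The endogenous cells were C57BL/6J CD8+ T cells infiltrating B16-OVA tumours, a melanoma line that expresses ovalbumin, taken at day 15. Aged animals were 64 to 68 weeks old and young animals 10 to 12 weeks. Aged Tadys cells (Slamf6- Tim-3-, 2 libraries) were compared with aged Tterm cells (Slamf6- Tim-3+, 3) and aged Tprog cells (Slamf6+ Tim-3-, 3), and young Tterm (5) with young Tprog (4). Tprog and Tterm are the progenitor and terminally exhausted subsets, and the gates define them by a pair of surface proteins only. OT-1 cells, whose transgenic antigen receptor recognises an ovalbumin peptide, gave aged Tterm (6), young Tterm (7), aged Tprog (2) and young Tprog (2) libraries from tumours. Spleens gave aged naive (2) and young naive (2) CD8+ T cell libraries. Every library carries the genotype label wild type, the OT-1 ones included, and the hosts of the OT-1 cells and the gate for naive cells are not given in the sources used here. Libraries were made from pools of 5000 to 50000 cells, and the series speaks of 2 or 3 biological replicates per population. Some libraries may thus be technical repeats, and the p-values measure only the spread between these libraries.

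Cytokine receptors of T cells pair a chain that binds one cytokine with chains shared between cytokines. Il2ra encodes the chain that makes the IL-2 receptor high-affinity, Il2rb the signalling chain shared by IL-2 and IL-15, and Il15ra the chain that binds and presents IL-15. Il7r, which sustains naive and memory T cells, and Il21r pair with the common gamma chain, and all of these signal through JAK kinases and STAT factors. Il6ra binds IL-6 and passes the signal through Il6st (gp130), the chain common to the IL-6 family. Il10ra binds IL-10, and Il18r1 binds IL-18 and signals through the adaptor Myd88 that Toll-like receptors also use.

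Depth ranged from 4.64 to 87.6 megareads in peaks per endogenous library and from 6.80 to 27.7 in the other table. Gene-end peaks of 6 CD8 T cell marker genes summed to 7697 to 11251 normalized reads in the endogenous libraries. Cd4, Foxp3 and Ms4a1 had no such peak there, but other genes of the lists for other cells did. Summed levels were 1241 to 1894 for Zbtb7b and Ikzf2, 2 of 4 genes of the CD4 and regulatory T cell list, 1245 to 1898 for 4 of 7 myeloid genes and 2237 to 3310 for 5 of 6 melanocyte and melanoma genes. The pair of aged OT-1 Tprog libraries stood apart from each other, with a Pearson correlation of 0.731 over tested peaks, against 0.863 to 0.966 for all other pairs within a group. Both came from sequencing batch 6, together with 1 aged and 2 young OT-1 Tterm libraries, and naive libraries came from batch 3 alone. All endogenous libraries carry 1 shared label for batches 1 and 2, which does not say which library came from which, so their fit has no batch term. Replicate 1 of aged OT-1 Tprog had the fewest reads of its table, 6.80 megareads, and results that rest on it are given with and without it.

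Promoter sequence was at hand for 7 of the 9 genes, from RefSeq on GRCm38.p6, the build that mm10 names. Shown here are the 250 bases before the transcription start of the 4 genes whose start peak was called in an endogenous comparison below. They are written 5′ to 3′ on the gene's strand, with matches to the motifs searched in capitals.
Il6ra: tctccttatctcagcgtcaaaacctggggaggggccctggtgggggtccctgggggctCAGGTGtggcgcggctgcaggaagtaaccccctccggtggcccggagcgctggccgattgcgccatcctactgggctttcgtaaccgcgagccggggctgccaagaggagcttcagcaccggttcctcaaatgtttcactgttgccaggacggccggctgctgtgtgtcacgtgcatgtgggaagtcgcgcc
Il7r: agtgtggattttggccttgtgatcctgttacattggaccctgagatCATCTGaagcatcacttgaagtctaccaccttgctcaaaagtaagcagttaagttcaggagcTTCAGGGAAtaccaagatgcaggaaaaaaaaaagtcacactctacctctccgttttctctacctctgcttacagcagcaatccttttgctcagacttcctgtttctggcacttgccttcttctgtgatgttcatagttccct
Il21r: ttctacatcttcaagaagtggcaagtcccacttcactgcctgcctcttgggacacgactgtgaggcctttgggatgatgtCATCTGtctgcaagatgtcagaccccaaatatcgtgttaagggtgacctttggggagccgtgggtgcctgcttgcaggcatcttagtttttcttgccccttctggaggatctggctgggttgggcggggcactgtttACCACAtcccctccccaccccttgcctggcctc
Il6st: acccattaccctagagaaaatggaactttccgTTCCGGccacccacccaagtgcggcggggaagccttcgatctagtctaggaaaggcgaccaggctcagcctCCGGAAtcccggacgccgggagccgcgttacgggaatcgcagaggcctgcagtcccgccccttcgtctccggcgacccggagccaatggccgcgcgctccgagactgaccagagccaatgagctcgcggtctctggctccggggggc

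The Il6ra window was chr3:89913197-89913446 on the minus strand, the Il7r window chr15:9529877-9530126 on the minus strand, the Il21r window chr7:125603179-125603428 and the Il6st window chr13:112463820-112464069, both on the plus strand. Searched on both strands were the STAT motif TTCNNNGAA, the AP-1 motif TGANTCA, the RUNX motif TGTGGT, the TCF motif CTTTGA, the ETS motif CCGGAA and the E-box CAGNTG. The shares of all 32851 promoter windows that hold them were 7.02%, 6.75%, 14.0%, 13.8%, 12.0% and 44.8% in that order. In Il7r the STAT motif stood as TTCAGGGAA, beginning 142 bases before the start, with an E-box at 204 bases. Il21r held a RUNX match, ACCACA, at 33 bases and an E-box at 170 bases. Il6st had a pair of ETS matches at 218 and 147 bases, and Il6ra had a single E-box at 192 bases. Each window lies within the start peak described below. A match only says that the letters are there.

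In endogenous tumour-infiltrating cells the receptor loci did not move together between subsets. At both ages, called peaks of Il21r and Il10ra were all more open in Tterm than in Tprog cells, those of Il6ra and Il7r were all less open, and those of Il2rb were more open with 1 exception. Among young libraries, 15 receptor peaks were higher and 17 lower in Tterm than in Tprog, 32 of 82 (39.0%), where 25.6% of all 71756 tested peaks were called in either direction (14.3% higher, 11.3% lower). Among aged libraries, 11 were higher and 12 lower, 23 of 82 (28.0%), where 12.1% of all peaks were called (6.75% higher, 5.37% lower). Calls are peaks with an adjusted p under 0.05 in limma. The values of Tterm and Tprog libraries did not overlap at 22 of the 32 and at 22 of the 23 peaks. Of the 32 peaks 20 (62.5%) were also called in aged cells, which is 87.0% of those 23, all 20 in the same direction. How often called peaks of all genes lacked overlap or were called at both ages was not counted. Counts of peaks without overlap, here and below, are therefore not particular to receptor loci. Leaving out 1 library gave 28 to 32 calls in young cells, and 14 to 20 in aged cells, with 15 calls without aged Tterm replicate 2 or 3 and 14 without aged Tprog replicate 2. Scaling each library to the same total turned the young split into 10 higher and 22 lower, and the median log2 difference of all peaks was then -0.17, against -0.01 with the deposited scaling. No called receptor peak changed sign under that scaling, in edgeR or in DESeq2. Peaks of a gene share a locus and are not independent, and in pooled cells a change in every cell cannot be told apart from a change in the share of cells that hold the site open.

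**Figure D1:**
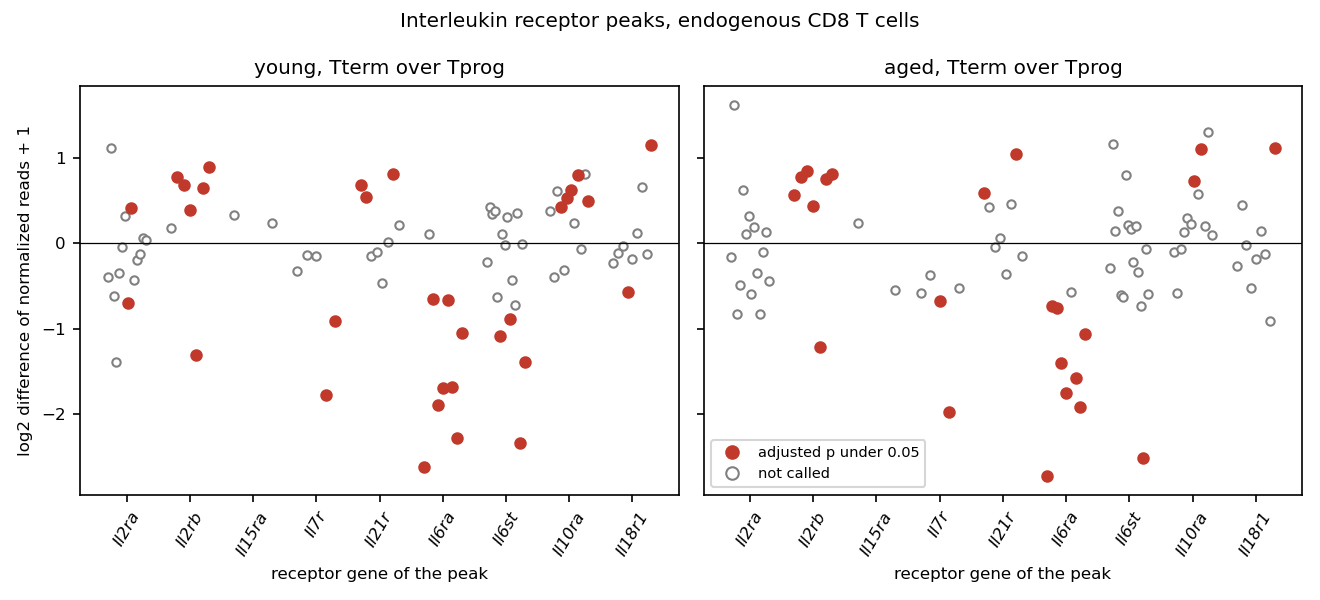
Each point is a receptor peak, placed by gene on the x axis and by its log2 difference of normalized reads plus 1, Tterm over Tprog, on the y axis, for young (left) and aged (right) endogenous cells. Filled points were called. Il6ra has 8 called peaks of 9 in each panel, all below 0, whereas 5 of 7 Il2rb peaks in young and 6 of 7 in aged cells were called above 0.

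Il6ra, the IL-6 binding chain, was the locus most often lower in Tterm, with 8 of its 9 peaks called lower and none higher at either age. Its start peak, chr3:89912298-89913658, holds the promoter printed above. That peak had 286, 220.2 and 173 normalized reads in aged Tterm, against 411, 449.7 and 533 in aged Tprog. In young cells it had 208, 177, 187, 217 and 227 in Tterm, against 456, 448, 396 and 379 in Tprog. All Tterm libraries lay below all Tprog libraries, and the log2 difference was -1.06 ± 0.19 (SE; adjusted p = 0.00029) in aged and -1.04 ± 0.15 (SE; adjusted p = 9.3e-06) in young cells. A log2 difference of -1 stands for a ratio of 1 to 2. The lead peak of the gene, the one with the lowest p over all groups, lay 6.9 kb after the start, at chr3:89905743-89906929. This peak had 33.6, 65.6 and 70.4 in aged Tterm, against 161, 266 and 199 in aged Tprog, and 48.8, 27.9, 21.03, 42.5 and 37.6 in young Tterm, against 161, 170.1, 173 and 173 in young Tprog. No Tterm value reached the lowest Tprog value, and Tterm differed by -1.91 ± 0.33 (SE; adjusted p = 0.00017) in aged and -2.28 ± 0.27 (SE; adjusted p = 2.8e-07) in young cells. A weaker peak 49.0 kb after the start, beyond the gene, at chr3:89864069-89864413, averaged 11.9 ± 2.21 in aged Tterm, against 86.0 ± 27.5 in aged Tprog, and 10.8 ± 7.55 in young Tterm, against 58.5 ± 16.5 in young Tprog (SD, with n as in the group sizes above). There the log2 difference was -2.72 ± 0.57 (SE; adjusted p = 0.0016) in aged and -2.61 ± 0.47 (SE; adjusted p = 0.00012) in young cells. A further peak 32.8 kb after the start, chr3:89880046-89880841, differed by -1.40 ± 0.37 (SE; adjusted p = 0.012) in aged and -1.89 ± 0.31 (SE; adjusted p = 3.1e-05) in young cells.

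Il6st, the shared signalling chain that Il6ra needs, did not follow it over the whole locus. In Tterm against Tprog 4 of its 16 peaks were lower in young and 1 in aged cells, and none was higher. The peak called at both ages lies at the far gene end, chr13:112507487-112508187, 43.8 kb after the start. It had 43.1, 12.4 and 19.9 in aged Tterm, against 104, 167 and 129 in aged Tprog, and 9.38, 27.7, 35.3, 34.1 and 25.1 in young Tterm, against 179.6, 98.4, 110.0 and 129 in young Tprog. These groups did not overlap, and the log2 difference was -2.51 ± 0.47 (SE; adjusted p = 0.00051) in aged and -2.34 ± 0.39 (SE; adjusted p = 4.2e-05) in young cells. At the Il6st start the log2 difference of Tterm over Tprog was 0.17 ± 0.16 (SE; adjusted p = 0.59) in aged and 0.31 ± 0.13 (SE; adjusted p = 0.085) in young cells, neither of them called.

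Il7r, the IL-7 receptor chain known for its presence on naive and memory T cells, was less open in Tterm upstream of its start. Of its 5 peaks 2 were called lower in Tterm at each age. The larger difference lay 3.7 kb before the start at chr15:9533295-9533928. Aged Tterm libraries had 74.9, 38.0 and 57.2 there, against 249.8, 228 and 180.3 in aged Tprog. Young Tterm libraries had 39.4, 29.3, 37.9, 37.1 and 21.5, against 142, 89.2, 149 and 86.1 in young Tprog. Both ages showed Tterm wholly below Tprog, with -1.97 ± 0.34 (SE; adjusted p = 0.00018) in aged and -1.77 ± 0.28 (SE; adjusted p = 2e-05) in young cells. The start peak, chr15:9529518-9530297, which covers the STAT motif printed above, had 157, 159 and 195 in aged Tterm, against 288, 259 and 268 in aged Tprog. It was called in aged cells with -0.68 ± 0.20 (SE; adjusted p = 0.027). In young cells its log2 difference was -0.15 ± 0.17 (SE; adjusted p = 0.58) and the groups overlapped. Whether the difference itself changed with age was tested by the interaction of age and subset, which gave -0.53 ± 0.26 (SE; adjusted p = 0.64) and was not called.

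Il2rb, the chain shared by the IL-2 and IL-15 receptors, moved the other way. Of its 7 peaks, 6 were higher and 1 lower in aged Tterm, and 5 were higher and 1 lower in young Tterm. Which gene end is the start was not known from the annotation used here, so peaks are given by gene end. The peak at the end with the lower coordinate, chr15:78479470-78482129, had 1132, 1038 and 1249 in aged Tterm, against 657, 574 and 666 in aged Tprog. In young cells the same peak had 900.0, 1154, 933, 1008 and 1125 in Tterm, against 520.0, 696, 659 and 668 in Tprog. Every Tterm library exceeded every Tprog library, with log2 differences of 0.85 ± 0.14 (SE; adjusted p = 0.00016) in aged and 0.69 ± 0.12 (SE; adjusted p = 6.4e-05) in young cells. The other end, chr15:78509916-78512603, averaged 1865 ± 126 in aged Tterm, against 1109 ± 128 in aged Tprog, and 1912 ± 174 in young Tterm, against 1217 ± 142 in young Tprog. It differed by 0.75 ± 0.13 (SE; adjusted p = 0.00015) in aged and 0.65 ± 0.10 (SE; adjusted p = 2.6e-05) in young cells, without overlap at either age. The only Il2rb peak called lower was a weak one inside the gene, chr15:78502060-78503228, named here after its values were seen. It had 56.8, 30.4 and 33.1 in aged Tterm, against 53.8, 126 and 109 in aged Tprog, and 61.9, 49.5, 47.1, 44.0 and 52.5 in young Tterm, against 128, 125, 146 and 109 in young Tprog. Its log2 difference was -1.21 ± 0.39 (SE; adjusted p = 0.04) in aged cells, where the groups overlapped, and -1.30 ± 0.32 (SE; adjusted p = 0.0031) in young cells, where they did not.

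The private chains of the IL-2 and IL-15 receptors showed little of this. Among 14 Il2ra peaks, 1 was higher and 1 lower in young Tterm, and none was called in aged Tterm. The lower one, chr2:11651288-11651968, 8.8 kb inside the gene, had 221, 203, 178, 149 and 219.7 in young Tterm, against 333, 296, 334 and 284 in young Tprog, a log2 difference of -0.69 ± 0.17 (SE; adjusted p = 0.0026) without overlap. In aged cells that peak gave -0.59 ± 0.20 (SE; adjusted p = 0.059), in the same direction and not called. The Il2ra start peak gave 0.11 ± 0.18 (SE; adjusted p = 0.79) in aged and -0.04 ± 0.15 (SE; adjusted p = 0.90) in young cells. Neither of the 2 Il15ra peaks was called, and its start peak, chr2:11705225-11706629, had 550.3, 590.1 and 652 in aged Tterm, against 519, 505 and 489 in aged Tprog. That is a log2 difference of 0.24 ± 0.16 (SE; adjusted p = 0.38), with 0.33 ± 0.13 (SE; adjusted p = 0.059) in young cells.

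Il21r, whose ligand IL-21 acts on exhausted CD8 T cells, was more open in Tterm at 3 of 8 peaks in young and 2 of 8 in aged cells, with none lower. Inside the gene, 27.0 kb after the start, the peak chr7:125629897-125630992 had 478, 583 and 658 in aged Tterm, against 265, 295 and 266 in aged Tprog. Young Tterm libraries had 399, 630.4, 573, 506 and 638, against 236, 451, 291 and 285 in young Tprog. The aged groups did not overlap (1.04 ± 0.20 (SE; adjusted p = 0.00073)), while in young cells 1 Tprog library lay within the Tterm range (0.82 ± 0.17 (SE; adjusted p = 0.0005)). A peak 9.8 kb before the start, chr7:125592785-125594403, chosen after its values were seen, had 814, 748 and 733 in aged Tterm, against 477, 519 and 533 in aged Tprog, and 801, 839, 732, 773 and 912 in young Tterm, against 503, 497, 519 and 486 in young Tprog. Tterm stood above Tprog in every library, by 0.59 ± 0.14 (SE; adjusted p = 0.006) in aged and 0.69 ± 0.12 (SE; adjusted p = 6e-05) in young cells. The start peak with the RUNX match, chr7:125602932-125603926, was called in young cells only, with 0.54 ± 0.13 (SE; adjusted p = 0.002), and gave 0.43 ± 0.15 (SE; adjusted p = 0.066) in aged cells. Its interaction with age was -0.11 ± 0.20 (SE; adjusted p = 0.91) and was not called.

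Il10ra, which binds the inhibitory cytokine IL-10, had 5 of 12 peaks higher in young Tterm, 2 of 12 higher in aged Tterm, and none lower. The largest difference among its called peaks, at both ages, was between genes, at chr9:45282366-45283095. It had 242, 239 and 256 in aged Tterm, against 92.2, 122 and 132 in aged Tprog, and 264, 244, 299.5, 245 and 338 in young Tterm, against 139, 177, 157 and 163 in young Tprog. Tterm and Tprog did not overlap at either age, and Tterm was higher by 1.10 ± 0.22 (SE; adjusted p = 0.00084) in aged and 0.80 ± 0.18 (SE; adjusted p = 0.0013) in young cells. At the gene end, chr9:45268371-45269676, the log2 difference was 0.43 ± 0.14 (SE; adjusted p = 0.02) in young and 0.13 ± 0.16 (SE; adjusted p = 0.71) in aged cells, the second not called. Peaks between genes were given to Il10ra by distance alone.

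Il18r1, the IL-18 binding chain, had its largest called difference just past the gene's end, 35.9 kb after the start, at chr1:40501117-40502704. This peak had 521, 469 and 689 in aged Tterm, against 227, 245 and 292 in aged Tprog, and 519, 592, 505, 653 and 665 in young Tterm, against 248, 346, 238 and 234 in young Tprog. All Tterm libraries were above all Tprog libraries, with 1.12 ± 0.18 (SE; adjusted p = 0.0001) in aged and 1.15 ± 0.15 (SE; adjusted p = 1.5e-06) in young cells. The start peak of Il18r1 gave -0.26 ± 0.19 (SE; adjusted p = 0.44) in aged and -0.23 ± 0.15 (SE; adjusted p = 0.30) in young cells and was not called. Another peak 7.9 kb inside the gene, chr1:40473596-40474186, chosen after its values were seen, went the other way in young cells with -0.56 ± 0.16 (SE; adjusted p = 0.0082).

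OT-1 cells, sorted by the same gates in a separately normalized table, shared some of these subset differences. Young OT-1 Tterm had 5 receptor peaks higher and 8 lower than young OT-1 Tprog, 13 of 102 (12.7%), where 7.63% of all 84091 tested peaks were called (4.06% higher, 3.57% lower). None of the 13 had overlapping groups, and 15 receptor peaks were called within batches 4 and 5. With 2 Tprog libraries the count rests on each of them, 3 without young OT-1 Tprog replicate 1 and 1 without replicate 2. The young OT-1 calls below were thus lost without 1 or the other of these libraries, except that of Il6ra 6.9 kb after the start, which held without either. A replicate block without the batch term gave 5. Aged OT-1 Tterm had 23 higher and 8 lower than aged OT-1 Tprog, 31 of 102 (30.4%), where 14.7% of all peaks were called (11.3% higher, 3.39% lower). That comparison rests on the Tprog pair that stood apart. Without aged OT-1 Tprog replicate 1 the count was 19, of which 15 were among the 31, and without replicate 2 it was 42, with 28 of the 31. Equal totals split it into 17 higher and 14 lower and edgeR into 15 and 15, and the median log2 difference of all peaks was then -0.25 and -0.12, against 0.15 with the deposited scaling. Within batch 6, with 1 Tterm library, 2 peaks were called. Of the regions tested in both tables, 10 were called in young cells of both kinds, 32.3% of the endogenous and 76.9% of the OT-1 calls, and all 10 in the same direction. In aged cells 17 were called in both kinds, 77.3% of the endogenous and 60.7% of the OT-1 calls, again all in the same direction. The same overlap was not counted over the regions of all genes, so it is not particular to receptor loci.

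Regions called in all 4 Tterm over Tprog comparisons numbered 8 of 80, and they are shown library by library below. They were picked after the values were seen, and the share of such regions among all genes was not counted. Higher in Tterm were the Il2rb gene end, Il21r at 9.8 kb before and 27.0 kb after the start, and the Il18r1 gene end. Lower in Tterm were the Il7r upstream peak and, in Il6ra, the start and the peaks 6.9 and 32.8 kb inside.

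**Figure D2:**
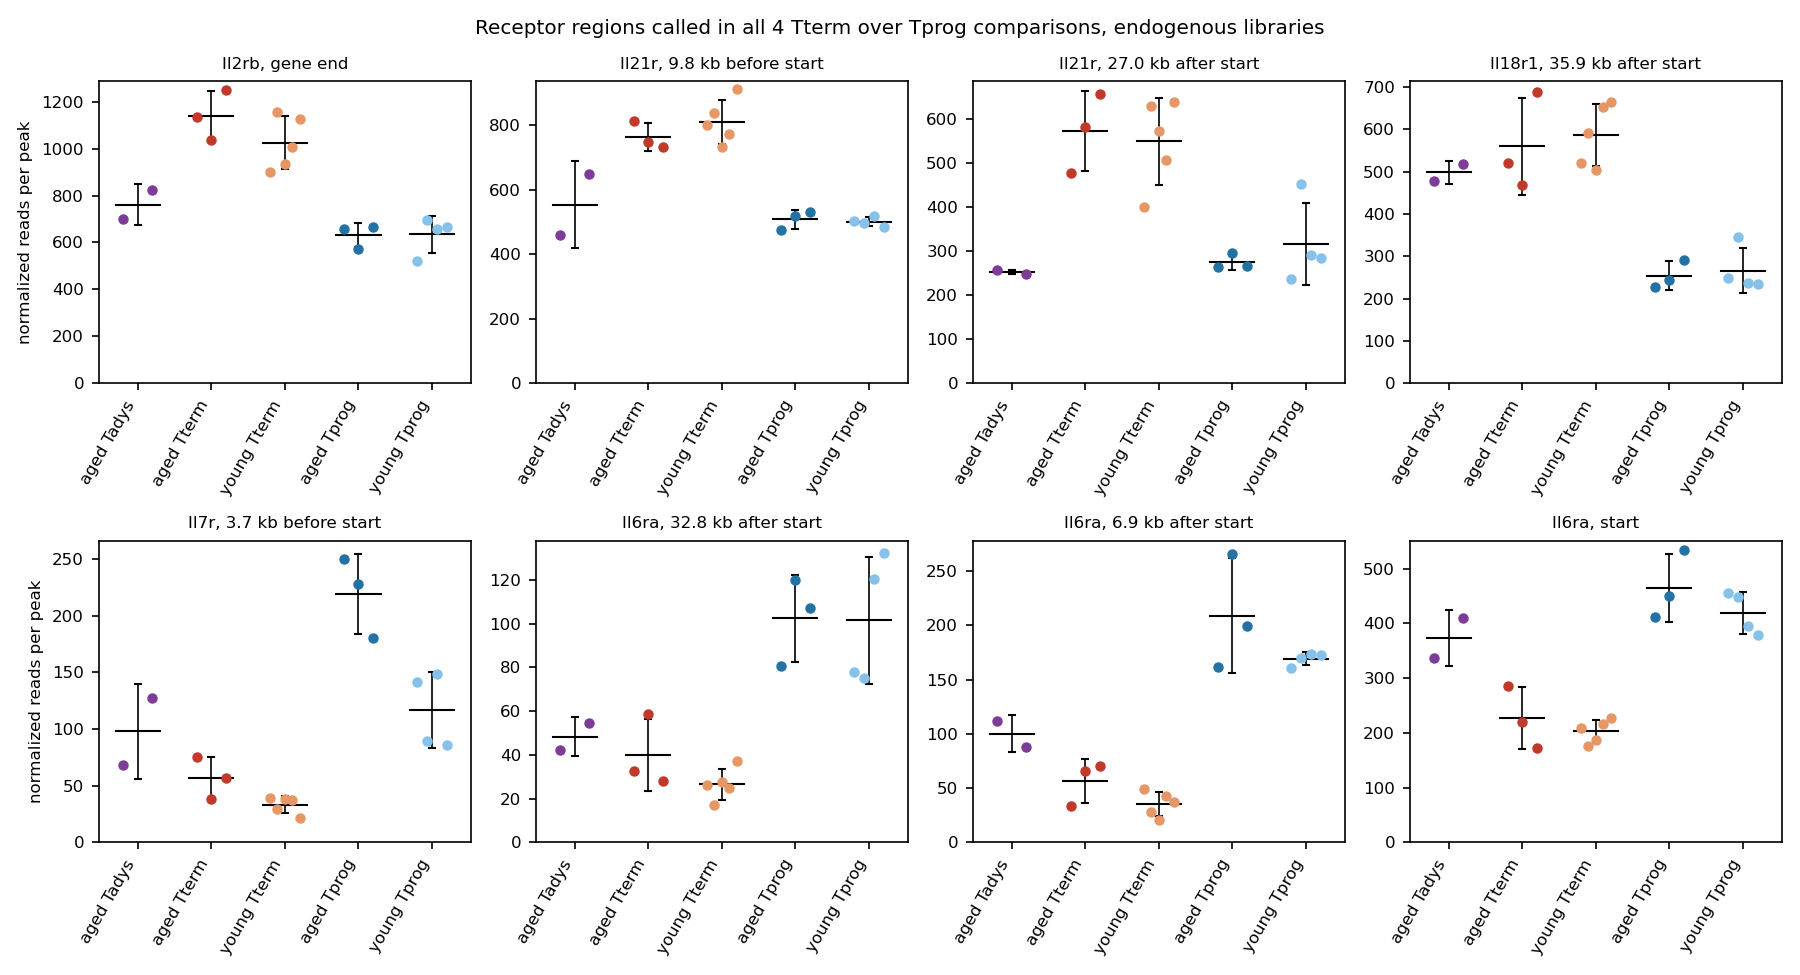
Normalized reads per peak (y axis) in each endogenous library (points), with mean and SD (bars), for the 8 regions called in all 4 Tterm over Tprog comparisons. The upper row is higher in Tterm than in Tprog and the lower row is lower, at both ages. Aged Tadys libraries lie near the Tprog level at Il21r 27.0 kb after the start and near the Tterm level at the Il18r1 gene end, 35.9 kb after the start.

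In OT-1 cells the Il6ra start peak, chr3:89911313-89913716, had 135 at the lowest, 138 at the median and 148 at the highest in aged Tterm, against 248 and 349.8 in aged Tprog, with a log2 difference of -0.99 ± 0.25 (SE; adjusted p = 0.0087). Young OT-1 Tterm had 95.2 at the lowest, 133 at the median and 165 at the highest, against 219 and 251 in young OT-1 Tprog, a difference of -0.87 ± 0.21 (SE; adjusted p = 0.0085). No OT-1 Tterm library reached a Tprog library of its age. Inside Il6ra at 6.9 kb, chr3:89905811-89906844, aged Tterm had 15.6 at the lowest, 24.0 at the median and 37.7 at the highest, against 133 and 103 in aged Tprog, and young Tterm had 12.9 at the lowest, 24.8 at the median and 41.0 at the highest, against 84.8 and 103 in young Tprog. The differences were -2.21 ± 0.42 (SE; adjusted p = 0.00077) in aged and -1.94 ± 0.35 (SE; adjusted p = 0.00064) in young OT-1 cells, and without aged OT-1 Tprog replicate 1 the aged one was -2.03 (adjusted p = 0.0098). At 32.8 kb, chr3:89880046-89880762, aged OT-1 Tterm averaged 17.9 ± 7.82, against 47.4 ± 3.70 in aged Tprog. That aged call was lost in 5 of 12 alternatives, among them the fit without aged OT-1 Tprog replicate 1, where the difference was -1.87. Young OT-1 Tterm averaged 17.4 ± 14.4 there, against 103 ± 1.58 in young Tprog.

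The Il7r upstream peak in OT-1 cells, chr15:9533068-9534057, had 30.5 at the lowest, 40.2 at the median and 71.9 at the highest in aged Tterm, against 94.3 and 196 in aged Tprog. In young OT-1 cells it had 19.9 at the lowest, 28.98 at the median and 48.4 at the highest in Tterm, against 74.7 and 89.6 in Tprog. The groups did not overlap, and the differences were -1.53 ± 0.41 (SE; adjusted p = 0.013) in aged and -1.45 ± 0.34 (SE; adjusted p = 0.0077) in young cells, with -1.004 (adjusted p = 0.092) in aged cells without aged OT-1 Tprog replicate 2. On the higher side, the Il2rb gene end, chr15:78479120-78482408, had 643 at the lowest, 831 at the median and 907 at the highest in aged OT-1 Tterm, against 328 and 305 in aged Tprog. It had 574 at the lowest, 779 at the median and 1110.3 at the highest in young OT-1 Tterm, against 415 and 397 in young Tprog. All Tterm libraries exceeded the Tprog libraries, by 1.42 ± 0.26 (SE; adjusted p = 0.00052) in aged and 0.91 ± 0.21 (SE; adjusted p = 0.0073) in young cells. Il21r gave 1.26 ± 0.24 (SE; adjusted p = 0.00074) in aged and 0.81 ± 0.20 (SE; adjusted p = 0.0098) in young OT-1 cells before the start, and 1.10 ± 0.27 (SE; adjusted p = 0.0068) and 1.01 ± 0.22 (SE; adjusted p = 0.0045) inside the gene. The Il18r1 gene end gave 1.41 ± 0.29 (SE; adjusted p = 0.002) in aged and 1.15 ± 0.25 (SE; adjusted p = 0.0031) in young OT-1 cells. At Il2rb, Il21r and Il18r1 the aged calls held without either aged OT-1 Tprog library. The young calls at Il2rb and at both Il21r peaks were lost without each young OT-1 Tprog library in turn and with the replicate block, at adjusted p-values up to 0.13, 0.15 and 0.089, and that at Il18r1 without young OT-1 Tprog replicate 2 (adjusted p = 0.078).

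Of 18 tested Il2ra peaks, 3 (16.7%) were higher in aged OT-1 Tterm and 1 (5.56%) was lower in young OT-1 Tterm, shares near or under the 14.7% and 7.63% of all peaks. The largest of the aged differences lay 2.8 kb inside the gene, chr2:11645067-11646138, with 202 at the lowest, 298 at the median and 357 at the highest in Tterm, against 27.9 and 149.9 in Tprog, and 2.14 ± 0.45 (SE; adjusted p = 0.0022). Without aged OT-1 Tprog replicate 1 the difference was 0.95 (adjusted p = 0.12), and without replicate 2 it was 3.33 (adjusted p = 1.7e-07). The Il15ra start, chr2:11705246-11706709, was called in young OT-1 cells, with 296 at the lowest, 359.8 at the median and 459 at the highest in Tterm, against 209.7 and 215 in Tprog, and 0.78 ± 0.23 (SE; adjusted p = 0.032).

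**Figure D3:**
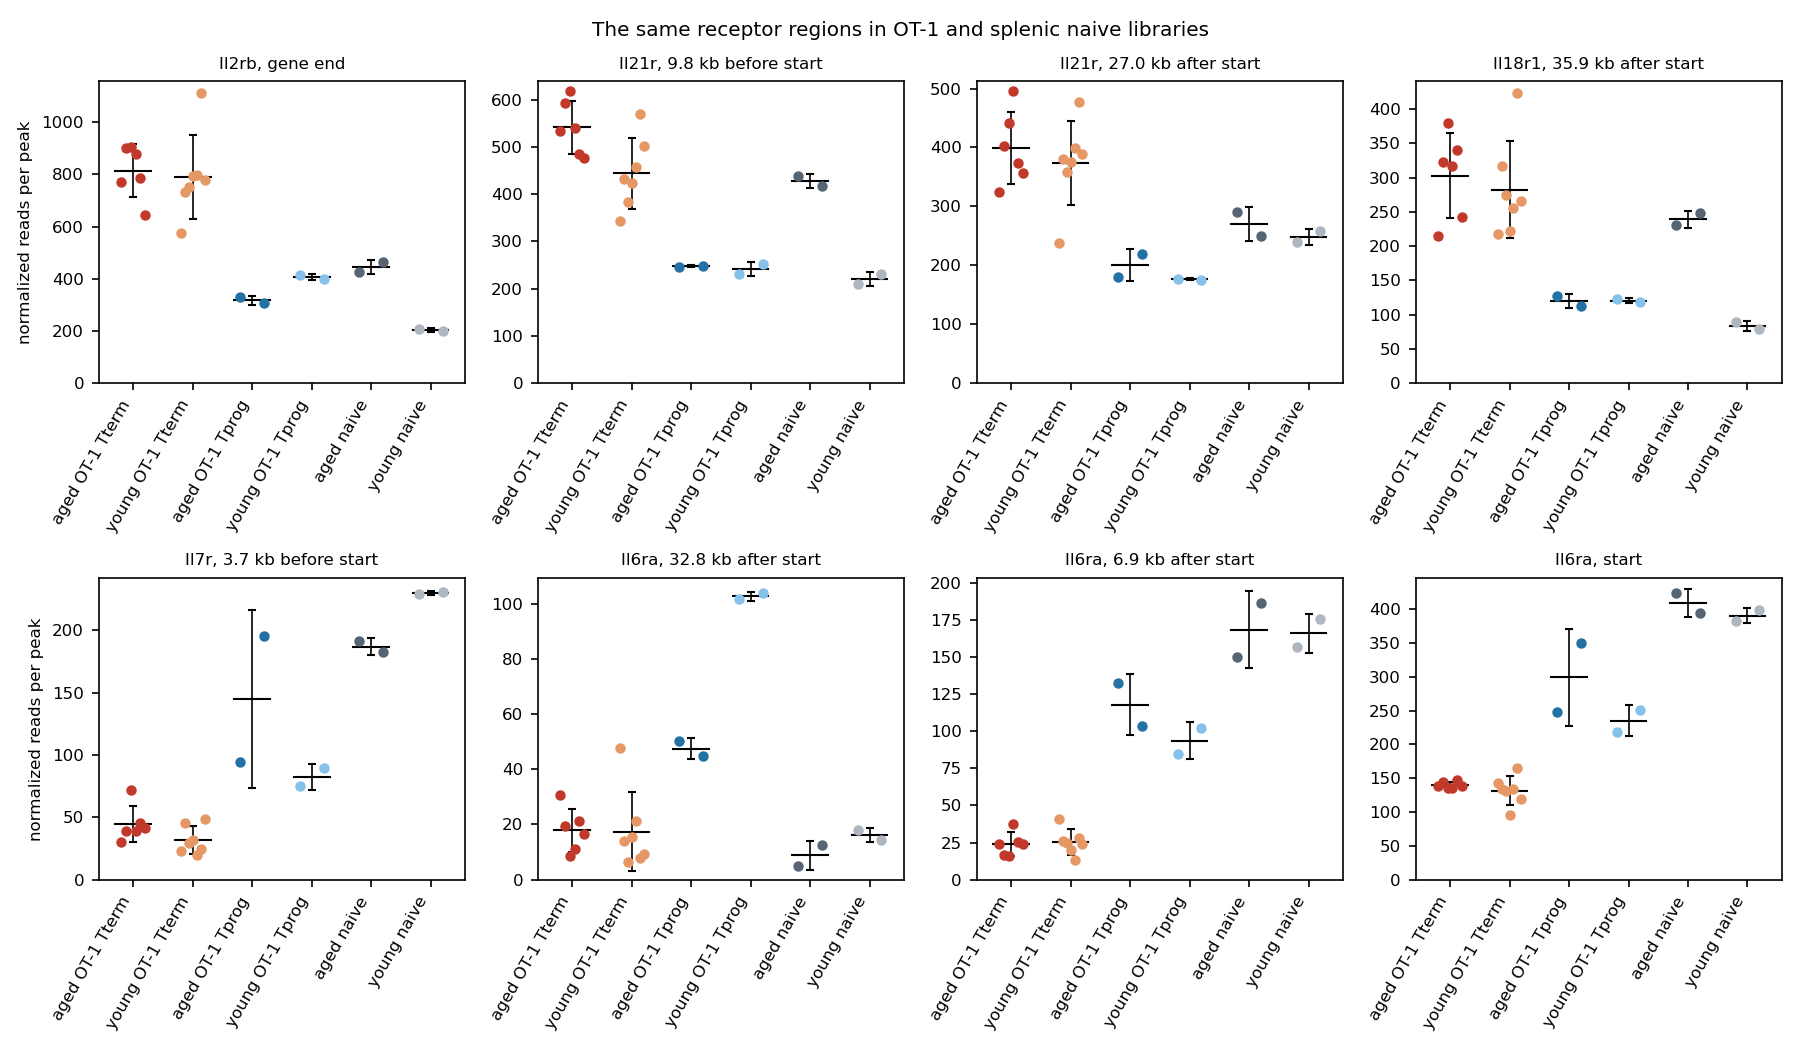
Normalized reads per peak (y axis) in each OT-1 and naive library (points), with mean and SD (bars), for the peaks that overlap the 8 regions of the endogenous plot. In every panel the Tterm means lie above (upper row) or below (lower row) the Tprog means of the same age, and aged naive cells lie above young naive cells at the Il2rb, Il18r1 and upstream Il21r peaks.

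Aged Tadys cells, negative for both Slamf6 and Tim-3, had 4 called peaks against aged Tterm and 5 against aged Tprog at Il6st, the locus with the most peaks. Against aged Tterm, 1 receptor peak was higher and 7 lower, 8 of 82 (9.76%), where 6.3% of all peaks were called (2.06% higher, 4.23% lower). Against aged Tprog, 4 were higher and 5 lower, 9 of 82 (11.0%), where 6.65% of all peaks were called (2.61% higher, 4.04% lower). None of these peaks had overlapping groups. The 2 comparisons share the Tadys libraries. Il6st accounted for 4 of the 7 lower peaks against Tterm and for 4 of the 5 against Tprog, with 1 further Il6st peak higher. By share of the locus these are 25% and 31.2% of 16 Il6st peaks, beside 28.6% and 14.3% of 7 Il2rb peaks. Leaving out Tadys replicate 1 gave 4 calls against Tterm (3 of the 8) and 3 against Tprog (3 of the 9), and leaving out Tadys replicate 2 gave 14 (6 of the 8) and 17 (7 of the 9). Without aged Tterm replicate 3 the first count was 4, and without aged Tprog replicate 2 or 3 the second was 5. The edgeR test called all 8 of the first set again and 5 of the 9 of the second, split into 3 higher and 2 lower. Counting only peaks within 10000 bp of the gene, which drops Il6st peaks far upstream, left 4 against Tprog.

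The Il6st peak 20.5 kb before the start, chr13:112443264-112443804, had 0 and 13.7 normalized reads in aged Tadys, against 60.3, 60.04 and 63.0 in aged Tterm and 61.5, 117 and 112 in aged Tprog. These Tadys values stand for 0 and 9 reads, and a count of 0 in replicate 1 allows up to 6.01 normalized reads, by counting error alone. Both Tadys libraries were far below every other endogenous library, of which the lowest was a young Tterm library at 38.8. Fitted log2 differences, which at so low a level depend on the pseudocount, were -4.02 ± 0.62 (SE; adjusted p = 0.00057) against Tterm and -4.62 ± 0.62 (SE; adjusted p = 0.00017) against Tprog. At 25.7 kb before the start, chr13:112437856-112438962, Tadys had 238 and 249, against 542, 578 and 592 in aged Tterm and 442, 448 and 689.6 in aged Tprog. Each Tadys library was under the lowest aged library, with -1.22 ± 0.21 (SE; adjusted p = 0.0016) against Tterm and -1.08 ± 0.21 (SE; adjusted p = 0.0042) against Tprog. The peak 5.4 kb before the start, chr13:112458277-112459141, had 48.1 and 97.2 in Tadys, against 158, 143 and 199.6 in aged Tterm and 146, 143 and 139 in aged Tprog. It gave -1.26 ± 0.30 (SE; adjusted p = 0.013) against Tterm and -1.05 ± 0.30 (SE; adjusted p = 0.035) against Tprog, and the Tadys libraries themselves lay far apart. Without Tadys replicate 1 the difference from Tterm was -0.76 (adjusted p = 0.22).

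The Il6st start peak, chr13:112463591-112465173, which covers both ETS matches, had 517 and 499.8 in Tadys, against 908, 784 and 739 in aged Tterm. It was lower without overlap, with -0.67 ± 0.18 (SE; adjusted p = 0.027), while against aged Tprog, with 626, 783 and 755, the difference of -0.50 ± 0.18 (SE; adjusted p = 0.089) was not called. In the opposite direction, the peak 13.7 kb before the start, chr13:112449975-112450821, had 120.2 and 95.7 in Tadys, against 65.3, 51.8 and 33.2 in aged Tprog, and 1.13 ± 0.34 (SE; adjusted p = 0.044). The peak 38.1 kb before the start, chr13:112424197-112427821, gave -0.57 ± 0.17 (SE; adjusted p = 0.045) against Tprog. The peaks at 20.5 and 25.7 kb before the start were called against both Tterm and Tprog in all 9 alternatives, either Tadys library left out included. Of the other Il6st calls, those against Tprog at 13.7, 5.4 and 38.1 kb before the start were lost in 6, 6 and 4 alternatives, with adjusted p-values up to 0.23, 0.40 and 0.38, and those against Tterm at the start and 5.4 kb before it in 3 and 2, up to 0.10 and 0.22.

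**Figure D4:**
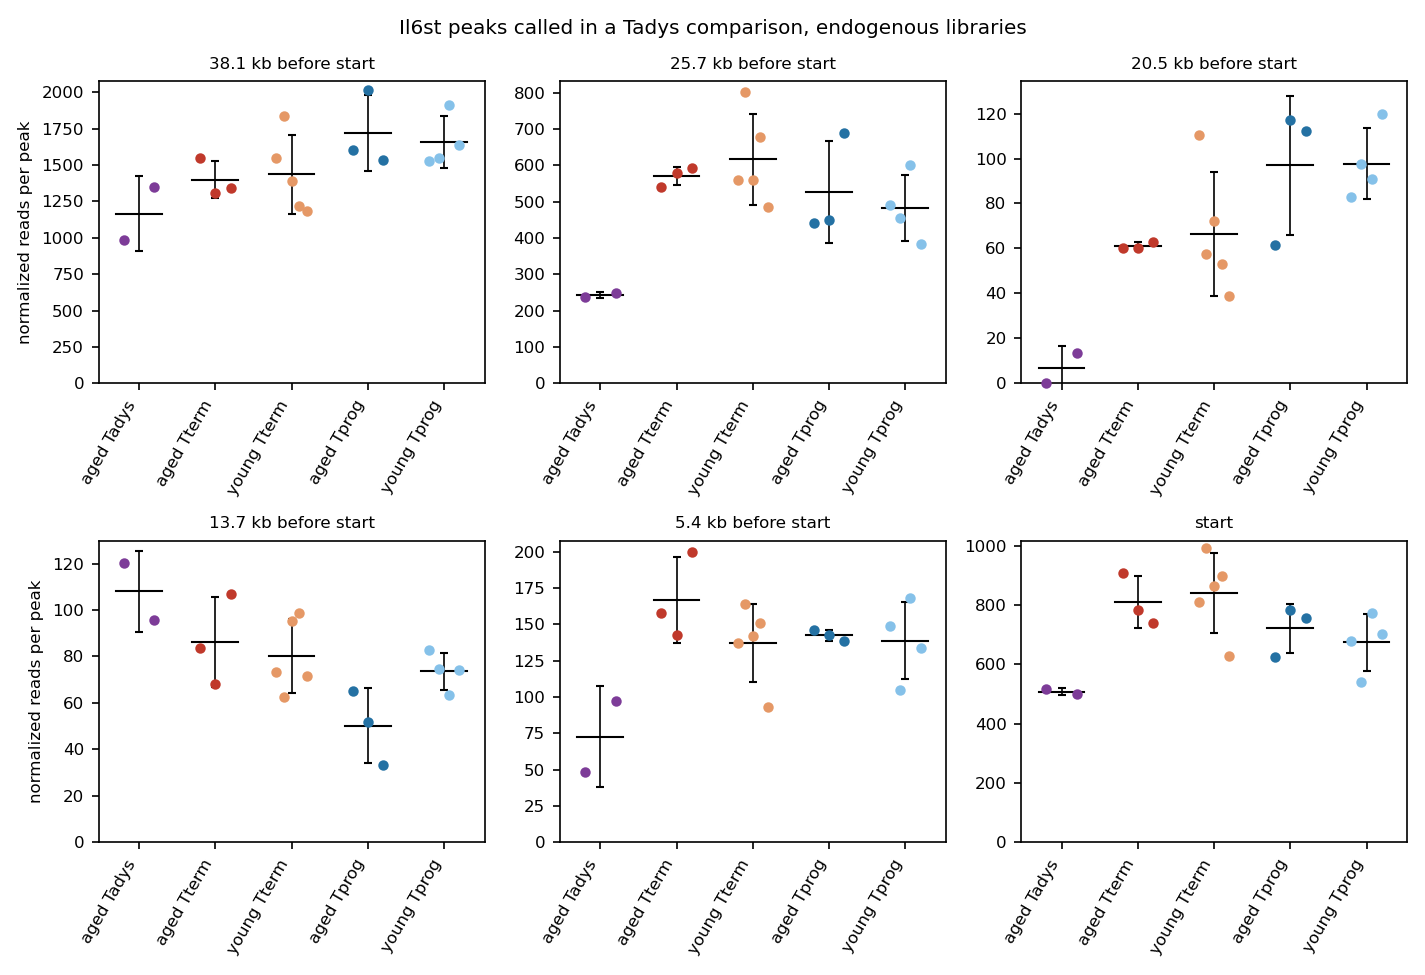
Normalized reads per peak (y axis) in each endogenous library (points), with mean and SD (bars), for the 6 Il6st peaks called in a Tadys comparison. Aged Tadys libraries lie below all other libraries at 20.5 and 25.7 kb before the start and above the aged Tprog libraries at 13.7 kb before the start.

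At the other loci Tadys resembled Tterm at some regions and Tprog at others. At Il21r inside the gene Tadys had 256 and 249, lower than in aged Tterm with -1.16 ± 0.23 (SE; adjusted p = 0.0035), and the difference from aged Tprog was -0.12 ± 0.23 (SE; adjusted p = 0.79), not called. The Il2rb gene-end peaks at 78479470 and 78477582 were lower than in aged Tterm, with -0.58 ± 0.16 (SE; adjusted p = 0.029) and -0.97 ± 0.27 (SE; adjusted p = 0.032), with Tadys values of 699 and 822 at the first and 104 and 176 at the second. The other Il2rb gene end, with 1517 and 1730.5, was higher than in aged Tprog by 0.55 ± 0.14 (SE; adjusted p = 0.02). The Il18r1 gene end had 479 and 518 in Tadys and was higher than in aged Tprog by 0.97 ± 0.20 (SE; adjusted p = 0.0061), and the Il10ra peak at 45282366 had 305 and 176 and was higher by 1.02 ± 0.24 (SE; adjusted p = 0.013). The Il6ra start peak had 337 and 410.2 in Tadys, higher than aged Tterm by 0.74 ± 0.21 (SE; adjusted p = 0.034), and was -0.31 ± 0.21 (SE; adjusted p = 0.38) against aged Tprog, not called. An Il2ra peak 14.9 kb inside the gene, chr2:11657545-11657849, had 52.1 and 100.3 in Tadys, against 181, 191 and 145 in aged Tprog, and -1.23 ± 0.36 (SE; adjusted p = 0.039). Several of these calls were lost in some of 9 alternatives each, among them each library of the 2 groups left out in turn. The Il2rb peak at 78479470 and the Il6ra start were lost in 5, with adjusted p-values up to 0.19 and 0.16, the Il2rb peak at 78477582 in 4 (up to 0.31), the other Il2rb gene end in 3 (up to 0.10), the Il10ra peak in 1 (0.24) and the Il2ra peak in 5 (up to 0.34). The Il21r and Il18r1 calls held in all 9.

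Levels in all 5 endogenous groups are given for the lead peaks of 3 genes, as means ± SD. At Il6ra 6.9 kb inside the gene they were 100.2 ± 17.04 in Tadys, 56.5 ± 20.01 in aged Tterm, 35.5 ± 11.1 in young Tterm, 209 ± 52.9 in aged Tprog and 169 ± 5.91 in young Tprog. From low to high this is the order young Tterm, aged Tterm, Tadys, young Tprog, aged Tprog. Neighbours in that order were not called where a test was run, with 0.64 ± 0.29 (SE; adjusted p = 0.67) for Tterm by age, 0.87 ± 0.36 (SE; adjusted p = 0.14) for Tadys against aged Tterm and 0.27 ± 0.30 (SE; adjusted p = 0.76) for Tprog by age. The Il7r upstream peak had the same order, with 97.9 ± 42.1 in Tadys, 56.7 ± 18.5 in aged Tterm, 33.0 ± 7.54 in young Tterm, 219 ± 35.5 in aged Tprog and 116 ± 33.4 in young Tprog. Tadys lay at 0.76 ± 0.38 (SE; adjusted p = 0.23) against aged Tterm and -1.21 ± 0.38 (SE; adjusted p = 0.0504) against aged Tprog, and neither was called. At the Il2rb gene end at 78509916 the levels were 1624 ± 151 in Tadys, 1865 ± 126 in aged Tterm, 1912 ± 174 in young Tterm, 1109 ± 128 in aged Tprog and 1217 ± 142 in young Tprog. Here Tadys lay between Tprog and Tterm as well, and the difference from aged Tterm was -0.20 ± 0.14 (SE; adjusted p = 0.42), not called.

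Markers of other cell types were read at gene-end peaks beside the Tadys results. The B cell list had such a peak for 2 of its 6 genes, Cd79b and Cd22, while Cd79a, Ms4a1 and Pax5 had none. The summed level of Cd79b and Cd22 was 158 to 184 normalized reads in Tadys, 44.8 to 61.3 in aged Tterm, 47.0 to 82.4 in young Tterm, 110 to 161 in aged Tprog and 57.0 to 136 in young Tprog. Alone, Cd79b had 78.1 to 82.0 in Tadys, 17.2 to 38.6 in aged Tterm and 7.48 to 40.4 in aged Tprog. Cd22 had 76.0 to 106 in Tadys, 18.6 to 35.6 in aged Tterm and 103 to 121 in aged Tprog, so it was not highest in Tadys. Of the 3 NK cell genes only Klrb1c had one, with 223 to 273 in Tadys, 243 to 343 in aged Tterm, 222 to 347 in young Tterm, 130 to 169 in aged Tprog and 150 to 205 in young Tprog. Klrb1c also ran higher in OT-1 Tterm, at 152 to 261 in aged and 119 to 174 in young libraries, against 79.1 to 82.7 in aged and 76.6 to 85.9 in young OT-1 Tprog. In the CD4 and regulatory T cell list, Ikzf2 had 366 to 427 in Tadys, 664 to 939 in aged Tterm, 561 to 878 in young Tterm, 538 to 802 in aged Tprog and 412 to 682 in young Tprog, while Cd4 and Foxp3 had no such peak. Zbtb7b of the same list was not lower in Tadys, with 875 to 1389, against 954 to 1157 in aged Tterm and 926 to 1041 in aged Tprog. In young cells Zbtb7b had 855 to 1292 in Tterm and 762 to 963 in Tprog. In the myeloid list, Spi1 had 277 to 341 in Tadys, 344 to 391.8 in aged Tterm, 395 to 497 in young Tterm, 204 to 334 in aged Tprog and 164 to 261 in young Tprog. Spi1 was also higher in OT-1 Tterm, with 162 to 248 in aged and 158 to 264 in young libraries, against 82.6 to 139 in aged and 97.0 to 109.6 in young OT-1 Tprog. Over the 4 of 7 myeloid genes with a peak, the sums were 1442 to 1898 in Tadys, 1360 to 1559 in aged Tterm, 1553 to 1769 in young Tterm, 1245 to 1620 in aged Tprog and 1478 to 1628 in young Tprog, and Adgre1, Fcgr1 and Lyz2 had none. The part of all these markers in the receptor results was not tested.

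In fits to all libraries, limma called no receptor peak by age in endogenous Tterm, endogenous Tprog or OT-1 Tterm cells. OT-1 Tprog cells were not compared by age. Aged Tterm against young Tterm gave 0 of 82 calls in limma, where 0.00836% of all peaks were called (0.00697% higher, 0.00139% lower), 7 peaks at an unadjusted p under 0.05 (7.14% among all peaks), and 0 calls in edgeR and in DESeq2. Aged Tprog against young Tprog gave 0 of 82, where 0.166% of all peaks were called (0.0822% higher, 0.0836% lower), 10 at an unadjusted p under 0.05 (12.6% among all peaks), and 0 in edgeR and in DESeq2. The interaction of age and subset gave 0 of 82, where 0% of all peaks were called, 3 at an unadjusted p under 0.05 (7.91% among all peaks), and 0 in edgeR and in DESeq2. Over the 82 peaks the log2 difference by age ranged between -0.69 and 1.04 in Tterm and between -0.87 and 0.94 in Tprog. Among them the Il7r upstream peak, named here after its values were seen, had 249.8, 228 and 180.3 in aged Tprog, against 142, 89.2, 149 and 86.1 in young Tprog. The groups did not overlap, and the difference of 0.94 ± 0.32 (SE; adjusted p = 0.20) missed the threshold. A p above the threshold does not show that the ages were alike.

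OT-1 Tterm cells gave 0 of 102 calls by age in limma, where 0.266% of all peaks were called (0.178% higher, 0.088% lower), with 13 at an unadjusted p under 0.05 (7.99% among all peaks), 0 in edgeR and 2 in DESeq2. The median log2 difference of the receptor peaks, aged over young, was 0.16, against 0.02 over all tested peaks. The peaks DESeq2 called, both singled out by that call, were Il2ra 16.7 kb before the start, chr2:11625782-11626350, and Il18r1 38.6 kb after the start, chr1:40504404-40504846. The Il2ra peak averaged 73.6 ± 24.9 in aged OT-1 Tterm, against 32.6 ± 19.2 in young OT-1 Tterm, and limma gave 1.21 ± 0.31 (SE; adjusted p = 0.12). Within batches 4 and 5 the limma difference was 1.49 with an adjusted p of 0.0071, and the peak was also called without aged OT-1 Tterm replicate 6 (adjusted p = 0.030), without young OT-1 Tterm replicate 7 (adjusted p = 0.0054) and with a replicate block without the batch term (adjusted p = 0.010). The Il18r1 peak averaged 27.1 ± 7.24 in aged, against 13.8 ± 4.11 in young OT-1 Tterm, with 1.01 ± 0.27 (SE; adjusted p = 0.14) in limma and an adjusted p of 0.027 in DESeq2.

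Set against young naive spleen cells, young OT-1 Tterm cells were more open at most Il10ra and Il2rb peaks and less open at most Il6ra and Il6st peaks. Young OT-1 Tterm had 33 receptor peaks higher and 27 lower than young naive, 60 of 102 (58.8%), where 40.3% of all peaks were called (22.4% higher, 17.9% lower). Young OT-1 Tprog had 26 higher and 17 lower, 43 of 102 (42.2%), where 24.2% were called (15% higher, 9.15% lower), and both comparisons share the young naive libraries. Aged OT-1 Tterm had 25 higher and 27 lower than aged naive, 52 of 102 (51.0%), where 47.7% were called (21.4% higher, 26.3% lower), a share near that of all peaks. Tissue, tumour and the naive libraries' own sequencing batch cannot be told apart in these comparisons. Leaving out a library gave 42 to 60, 21 to 29 and 29 to 54 calls in the order of these comparisons. The second was 22 and 21 without young naive replicate 1 and 2 and 23 without young OT-1 Tprog replicate 2, and the third was 29 and 32 without aged naive replicate 1 and 2.

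Il10ra had 10 of 14 tested peaks higher and none lower in young OT-1 Tterm, and 10 higher and 2 lower in aged OT-1 Tterm, than in naive cells of that age. The peak chr9:45278079-45279227, between genes, had 212 at the lowest, 286 at the median and 349.7 at the highest in young OT-1 Tterm and 229 and 182 in young OT-1 Tprog, against 32.8 and 31.3 in young naive. Each tumour library was above the naive ones, by 3.10 ± 0.39 (SE; adjusted p = 9.8e-07) in Tterm and 2.63 ± 0.48 (SE; adjusted p = 0.00025) in Tprog. The Il10ra peak that led the endogenous comparison, here chr9:45282371-45282941, averaged 128 ± 16.3 in aged and 128 ± 41.7 in young OT-1 Tterm, against 20.1 ± 1.13 in aged and 17.1 ± 0.362 in young naive. It differed by 2.59 ± 0.33 (SE; adjusted p = 1.2e-06) in aged and 2.78 ± 0.33 (SE; adjusted p = 3.9e-07) in young cells. The gene end itself, chr9:45267874-45269805, was lower in aged OT-1 Tterm than in aged naive, with -0.68 ± 0.22 (SE; adjusted p = 0.014), and gave -0.12 ± 0.22 (SE; adjusted p = 0.69) in young cells.

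Il2rb was higher at 7 of 10 peaks in young OT-1 Tterm, and at 5 of 10 with 1 lower in aged OT-1 Tterm, than in naive cells. The gene end chr15:78509943-78512348 had 1159.7 at the lowest, 1245 at the median and 2031 at the highest in young OT-1 Tterm and 692 and 778 in young OT-1 Tprog, against 264 and 224 in young naive. The tumour cells were higher in every library, by 2.42 ± 0.27 (SE; adjusted p = 1.5e-07) in Tterm and 1.59 ± 0.32 (SE; adjusted p = 0.00086) in Tprog. Il2ra, known as an activation-induced chain, had 6 peaks higher and 3 lower in young OT-1 Tterm. Its lead peak, chr2:11690313-11691760, 48.2 kb inside the gene, averaged 204 ± 71.4 in aged and 185 ± 40.1 in young OT-1 Tterm, against 21.8 ± 2.38 in aged and 38.7 ± 2.54 in young naive. The log2 differences were 3.22 ± 0.38 (SE; adjusted p = 4.8e-07) in aged and 2.48 ± 0.38 (SE; adjusted p = 1.3e-05) in young cells, without overlap.

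On the lower side, Il6ra had 7 of 12 tested peaks lower and none higher in young and in aged OT-1 Tterm than in naive cells of that age, and Il6st had 10 of 17 lower at each age. The Il6ra peak 49.0 kb after the start, chr3:89863507-89864849, had 14.0 at the lowest, 22.6 at the median and 49.2 at the highest in young OT-1 Tterm and 52.4 and 60.1 in young OT-1 Tprog, against 208 and 193 in young naive. The log2 difference from naive was -3.07 ± 0.47 (SE; adjusted p = 1.4e-05) in Tterm and -1.82 ± 0.58 (SE; adjusted p = 0.023) in Tprog. The Tterm call held in all 13 alternatives, whereas the Tprog call was lost in 4 of 8. One Il6ra peak broke the pattern. At 32.8 kb, chr3:89880046-89880762, young OT-1 Tprog had 102 and 104, against 18.0 and 14.4 in young naive, and was higher by 2.60 ± 0.66 (SE; adjusted p = 0.0052), whereas young OT-1 Tterm gave -0.02 ± 0.54 (SE; adjusted p = 0.98) against naive. At Il6st 16.7 kb before the start, chr13:112447068-112447669, Tprog was also above naive, with 78.1 and 83.7 in young OT-1 Tprog, against 4.50 and 12.0 in young naive, and 3.27 ± 0.81 (SE; adjusted p = 0.0045). Unlike at Il6ra, young OT-1 Tterm was not called apart from young OT-1 Tprog there, with -1.62 ± 0.67 (SE; adjusted p = 0.16). The Tprog calls against naive at this peak and at Il6ra 32.8 kb were each lost in 1 of 8 alternatives. At the far Il6st gene end, chr13:112507503-112508319, OT-1 Tterm was lower than naive, with -3.04 ± 0.43 (SE; adjusted p = 5.7e-06) in aged and -2.68 ± 0.43 (SE; adjusted p = 2.5e-05) in young cells. The Il7r upstream peak averaged 44.5 ± 14.3 in aged and 31.7 ± 11.0 in young OT-1 Tterm, against 187 ± 6.47 in aged and 229.9 ± 1.53 in young naive. Its log2 difference was -2.12 ± 0.34 (SE; adjusted p = 2.7e-05) in aged and -2.92 ± 0.34 (SE; adjusted p = 3.2e-07) in young cells.

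**Figure D5:**
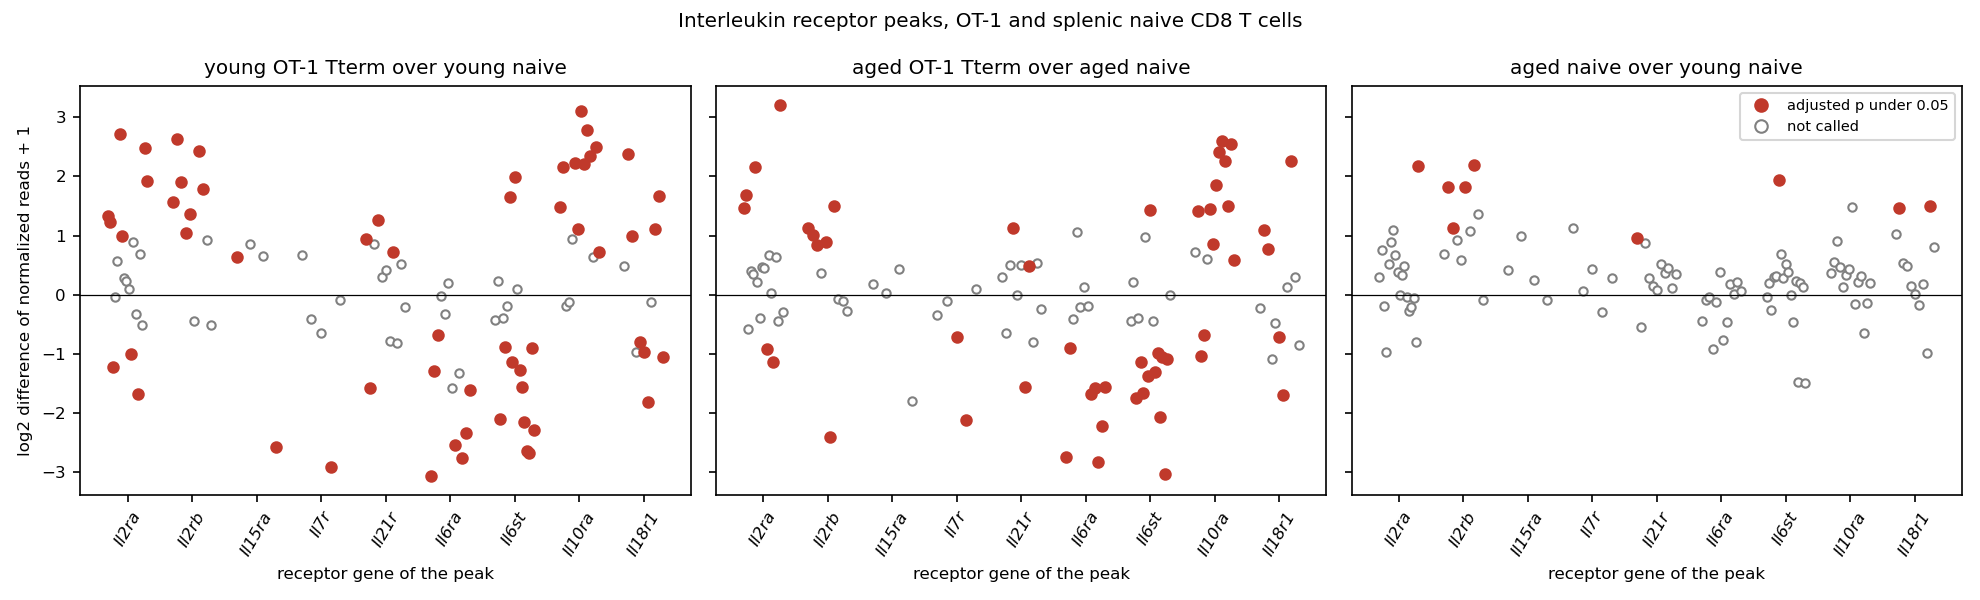
Each point is a tested receptor peak, placed by gene (x axis) and by its log2 difference of normalized reads plus 1 (y axis), for young OT-1 Tterm over young naive, aged OT-1 Tterm over aged naive, and aged over young naive cells. Filled points were called. Il10ra and Il2rb lie mostly above 0 and Il6ra and Il6st mostly below 0 in the first 2 panels, and all 9 called peaks of the third panel lie above 0.

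Naive cells were the population in which limma, fitted to all libraries, called receptor peaks by age, and whether the age difference itself differs between populations was not tested. Aged naive had 9 peaks higher and none lower than young naive, 9 of 102 (8.82%), where 5.24% of all peaks were called (4.08% higher, 1.16% lower), and no groups overlapped at the 9. They were 4 at Il2rb, 2 at Il18r1 and 1 each at Il2ra, Il21r and Il6st. The Il2ra gene end after the start, chr2:11692482-11693727, had 268 and 244 in aged naive, against 60.4 and 51.3 in young naive, with 2.18 ± 0.34 (SE; adjusted p = 0.00032). At Il2rb the peak chr15:78477771-78478250 had 76.4 and 56.2 in aged naive, against 17.4 and 18.4 in young naive, with 1.82 ± 0.38 (SE; adjusted p = 0.0043). The peak chr15:78501645-78503298, inside Il2rb, had 166 and 164 in aged naive, against 46.9 and 44.9 in young naive, with 1.83 ± 0.37 (SE; adjusted p = 0.0038), and in aged OT-1 Tterm it was below aged naive, with -2.41 ± 0.31 (SE; adjusted p = 1.4e-06). The Il18r1 gene end had 230.2 and 248 in aged naive, against 88.7 and 78.6 in young naive, with 1.51 ± 0.30 (SE; adjusted p = 0.0027). The Il6st peak 20.5 kb before the start, chr13:112443179-112443912, which overlaps the one that was low in Tadys, had 138 and 111 in aged naive, against 33.4 and 29.7 in young naive, with 1.94 ± 0.45 (SE; adjusted p = 0.0096).

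With 2 libraries a group these naive calls are thinly based. Without aged naive replicate 1 the count was 2 and without replicate 2 it was 6, and without young naive replicate 1 and 2 it was 4 and 3. DESeq2 called 15. The call at the Il2ra gene end held without any 1 of the 4 libraries. Klrb1c gave 148 to 154 normalized reads in aged naive, against 61.7 to 73.3 in young naive, and Cd22 gave 78.4 to 88.2 in aged naive, against 16.8 to 30.8 in young naive. The summed level of the 4 of 6 B cell genes with a gene-end peak was 220 to 234 in aged naive, against 191 to 206 in young naive. Their part in these results was not tested.

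Of 39 other genes of the same pathways, listed by role, 272 peaks were tested in the endogenous table. Young Tterm had 42 of them higher and 56 lower than young Tprog, over 19 and 18 genes, and aged Tterm 23 higher and 23 lower, beside the 25.6% and 12.1% called among all peaks. In young cells the counts were 13 higher and 23 lower of 94 receptor peaks, 8 and 14 of 52 kinase peaks, 7 and 7 of 58 STAT peaks, 5 and 1 of 21 feedback peaks, 9 and 11 of 38 ligand peaks, and none of 9 adaptor peaks. Jak2, Il21, Il10 and Cish are given by their peak of lowest p and were picked after the values were seen. Jak2, a kinase of cytokine receptors, had 62.0 normalized reads in young Tterm, against 349 in young Tprog, a log2 difference of -2.49 ± 0.20. Il21, the ligand of Il21r, had 12.5 in young Tterm, against 179.5 in young Tprog, and -3.75 ± 0.35. Il10, the ligand of Il10ra, had 157 in young Tterm, against 34.6 in young Tprog, and 2.21 ± 0.29, and Cish, a feedback inhibitor induced by STAT5, had 551 in young Tterm, against 278 in young Tprog, and 1.00 ± 0.14. All 4 were called. The Il10 and Il10ra peaks named were thus both higher in Tterm, whereas those of Il21 and Il21r went opposite ways. Tadys had 6 of the 272 peaks higher and 16 lower than aged Tterm (8.09%, where 6.3% of all peaks were called). Against aged Tprog it had 3 higher and 16 lower (6.99%, where 6.65% of all peaks were called), a share near that of all peaks. The 3 age comparisons of tumour cells in that table called none.

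Genes outside the list whose peaks ran most like the receptor lead peaks over the 17 endogenous libraries were B4galnt2 for Il2rb (Pearson r = 0.983), Itpkb for Il7r (0.976), Asphd2 for Il18r1 (0.970), Cox10 for Il6ra (0.967), Susd1 for Il10ra (0.963), Cog4 for Il6st (0.953), Galnt2 for Il2ra (0.947), Tmem163 for Il21r (0.944) and Prex1 for Il15ra (0.928). These are the highest of all tested peaks, so the values are a description. The libraries share subset and depth, and no p is given.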

How the data were processed

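ATAC-seq of sorted mouse CD8+ T cells was read in 17 endogenous and 21 OT-1 or naive libraries, each kind in 1 deposited table. As deposited by the authors, the values are signal per peak, that is reads in a peak scaled by 1 size factor per library, and the submitters' processing notes name Bowtie2 2.2.9, Picard 2.8.0, SAMtools 1.3.1, MACS2 2.1.1, DESeq2 1.28.1 and mm10. The sources used here do not say how peaks were merged across libraries. Whole reads were recovered for 100% of values (within 0.01 of a read) and gave the depths and the counts for edgeR 4.0.16 and DESeq2 1.42.0.

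Peaks with a mean of 10 or more were tested, 71756 and 84091, with limma 3.58.1 in R 4.3.3 on log2 of the value plus 1, all groups of a table in 1 fit with a variance trend, and a term for batch 6 in the second table. Fold changes on that scale understate those of weak peaks. Adjusted p-values are Benjamini-Hochberg values over all tested peaks of a comparison. Alternatives were a pseudocount of 5, no filter, equal library totals, edgeR, DESeq2, a replicate block, no batch term, fits within a batch, assignment within 10000 bp and each library left out in turn. A replicate block together with the batch term could not be fitted, so the block without that term was added after the data were seen.

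Each peak went to the nearest mm10 protein-coding gene body. Motifs were read in RefSeq promoter windows of 250 bases (GRCm38.p6), which the table used here holds for neither Il2rb nor Il10ra. The members, the gene lists and the tests were chosen with earlier results of these data known. Peaks were named by rule: the peak of lowest p over all groups, the start peak, those called by age or in Tadys, and per comparison and direction up to 4 called peaks of largest difference without overlap and with at least 30 normalized reads on average in the group that is higher. Others are marked as chosen after their values were seen. The tests were tried on simulated data. Tables and plots were made with Python 3.11.15, numpy 2.4.6, pandas 2.3.3 and matplotlib 3.10.9.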

Additional observations from a re-analysis of the deposited data

Results flagged for a closer look

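Within groups of 4 to 10 libraries, 1 library stood apart at a named peak in 14 of the 126 groups looked at, and chance alone gives about 1 in 20. The measure is the gap to the nearest other library as a share of the group's whole range.

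Of the 14, 8 were libraries of sequencing batch 6 (young OT-1 Tterm replicates 6 and 7 and aged OT-1 Tterm replicate 6), 3 were of batches 4 and 5 and 3 were endogenous. These OT-1 Tterm groups mix batches, which the chance figure leaves out, and the part of the batch was not tested. At Il2ra 11690313 the lowest library of both OT-1 Tterm groups was from batch 6.

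Of the 14, 5 were young OT-1 Tterm replicate 6 as the highest library. At the Il2rb gene ends 78509943 and 78479120 it had 2031 and 1110 normalized reads, against 1160 to 1405 and 574 to 798 in the others, with gap shares of 0.718 and 0.583. At the Il10ra peaks 45282371, 45287867 and 45279792 it had 219, 109 and 212, against 89.8 to 124, 41.4 to 48.9 and 46.9 to 114, with gap shares of 0.733, 0.889 and 0.595. Young OT-1 Tterm replicate 7 was lowest at Il2ra 11690313, with 96.8, against 183 to 212 (gap share 0.75), and highest at the Il7r start, with 193, against 84.0 to 112 (0.742). Replicate 1 of that group was highest at Il6ra 89880046, with 47.8, against 6.21 to 21.1 (0.643).

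In aged OT-1 Tterm, replicate 6 was lowest at Il2ra 11690313, with 66.9, against 194 to 262 (0.654). Replicate 3 was highest at the Il7r upstream peak 9533068, with 71.9, against 30.5 to 45.3 (0.643), and at Il10ra 45278079, with 388, against 310.3 to 325 (0.807).

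Among endogenous libraries, young Tterm replicate 3 was lowest at the Il2ra start, with 422, against 525 to 552 (0.796). Young Tprog replicate 2 was highest at the Il2rb gene end 78509916, with 1429.8, against 1137 to 1153 (0.946), and at the Il18r1 gene end, with 346, against 234 to 248 (0.87).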

How the results depend on the processing

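Pairs of a named peak and a comparison that called it were followed through some of the alternatives only. These were a pseudocount of 5, equal library totals, edgeR, a replicate block and each library left out in turn. Of 82 such pairs, 50 stayed called under all of these and none changed direction. DESeq2, no filter, no batch term and the fits within a batch are not part of these counts. The 50 thus include aged OT-1 calls that were not followed within batch 6. Counts of called receptor peaks that moved by over 1.5 times were, for Tadys against aged Tprog, 5 in edgeR and 4 with assignment within 10000 bp, against 9. DESeq2 gave 15 for aged against young naive, against 9, and 2 for OT-1 Tterm by age, against 0. Within batches 4 and 5 that age comparison gave 1, and within batch 6 aged OT-1 Tterm against Tprog gave 2, against 31. The closer assignment holds fewer peaks, and in the other cases the cause was not tested. The fits within a batch hold fewer libraries and also remove the mix of batches, and these cannot be told apart here. With each library left out in turn, counts ranged from 28 to 32 (young Tterm against Tprog), 14 to 20 (aged), 4 to 14 and 3 to 17 (Tadys against Tterm and Tprog), 1 to 15 and 19 to 42 (young and aged OT-1 Tterm against Tprog), 42 to 60, 21 to 29 and 29 to 54 (young OT-1 Tterm, young OT-1 Tprog and aged OT-1 Tterm against naive), 2 to 6 (naive by age), 0 to 1 (OT-1 Tterm by age), and 0 to 0 for endogenous Tterm and Tprog by age and their interaction. Where this leaves 1 library in a group, it is assumed to vary like the other groups.

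Replicate numbers were not shown to pair the samples: in no comparison with 3 or more pairs did every same-numbered pair deviate together by a correlation over 0.1, and no label ties a number to an animal or day. This check cannot show that pairing is absent. With a replicate block the counts were 30 and 21 for young and aged endogenous Tterm against Tprog, and 6 and 7 for Tadys against Tterm and Tprog. In the other table, where the block replaced the batch term, young OT-1 Tterm against Tprog gave 5, against 13, OT-1 Tterm by age gave 1, against 0, and aged OT-1 Tterm against Tprog gave 21, against 31. Few reads stand behind low values, as at the Il6st peak 20.5 kb before the start, where 13.7 normalized reads in a Tadys library were 9 reads, and 102 of 121 receptor peaks of the second table reached the filter.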

Other observations

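The 39 other cytokine pathway genes had 336 tested peaks in the OT-1 and naive table, and the counts below stand beside the shares called among all peaks in the report. Young OT-1 Tterm had 12 of them higher and 23 lower than young OT-1 Tprog, and aged OT-1 Tterm 57 higher and 15 lower than aged OT-1 Tprog, the comparison that rests on the pair of libraries that stood apart. Against naive cells, young OT-1 Tterm had 113 higher and 59 lower, young OT-1 Tprog 90 higher and 25 lower, and aged OT-1 Tterm 101 higher and 86 lower. Aged naive cells had 25 higher and 5 lower than young naive cells. Of these, 10 higher and 2 lower were at receptor genes and 4 higher and 3 lower at STAT genes. A further 6 higher were at ligand genes, 4 higher at feedback genes and 1 higher at an adaptor gene, and none was at kinase genes. OT-1 Tterm by age called none of the 336.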
